A study of Homo sapiens with 6 samples.

Results

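The proliferation-linked transcription factors MYC, MYB and MYBL2 were followed in NCM-460 cells, an epithelial line from normal human colon, as 3 of the 236 genes of a NanoString nCounter cancer panel. The members were picked by gene name, at a time when earlier results of these data were known, and all 3 exceeded background in all 6 samples. In the files they carry the RefSeq transcripts NM_002467.3 (MYC), NM_005375.2 (MYB) and NM_002466.2 (MYBL2), which a RefSeq gene table gives the same symbols. In this assay barcoded probes hybridised to total RNA are counted without amplification, with 1 probe set per gene. The cells had been given either pri-miR-135b, the precursor transcript from which the microRNA miR-135b is cut (3 samples, labelled OverExp_135b), or a control siRNA (3 samples, labelled Ctrl). The series' design text names oligos for both groups, and by the sample labels the groups also differ in the kind of RNA given, so that difference and miR-135b cannot be told apart. No label says whether the samples of a group were separate cultures, so the spread between them may be technical. The panel has no probe named for miR-135b, so its level was not measured here.

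MYC, with its partner MAX, binds E-box sequences and drives genes for growth and entry into the cell cycle, and in the colon it is a known target of beta-catenin. MYB is needed to maintain proliferating progenitor cells of the colonic crypt and is known to activate MYC itself. MYBL2 (B-MYB), a relative of MYB, is switched on by E2F factors at the start of S phase and then acts with the MuvB complex on genes of G2 and mitosis.

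The mature products of the transfected precursor are shown because they define the agent. In RefSeq the MIR135B hairpin lies on the minus strand of chromosome 1 (GRCh38.p14), with miR-135b-5p at chr1:205448361-205448383 and miR-135b-3p at chr1:205448323-205448344. Capitals mark the seed, bases 2 to 8, through which a microRNA mainly pairs with its targets.
hsa-miR-135b-5p: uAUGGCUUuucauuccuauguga
hsa-miR-135b-3p: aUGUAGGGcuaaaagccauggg

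Of the 3 members, 2 also had an entry in the RefSeq promoter table, which gives 250 bases before and 50 bases after the start of each gene. MYB and MYBL2 are shown because they had an entry, and MYC had none. The MYB window is chr6:135181058-135181357 and the MYBL2 window chr20:43666864-43667163, both on the plus strand of GRCh38.p14. Capitals mark TTGGCGGG, a form of the sequence bound by E2F factors, and CACGTG, the E-box bound by MYC with MAX. Both motifs were searched on both strands and do not overlap each other.
MYB: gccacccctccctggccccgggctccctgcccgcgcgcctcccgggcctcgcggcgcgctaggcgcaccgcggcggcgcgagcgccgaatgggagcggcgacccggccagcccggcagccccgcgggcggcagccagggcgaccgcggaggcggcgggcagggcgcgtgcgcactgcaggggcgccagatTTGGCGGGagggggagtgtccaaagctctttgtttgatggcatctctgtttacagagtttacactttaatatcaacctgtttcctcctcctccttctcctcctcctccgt
MYBL2: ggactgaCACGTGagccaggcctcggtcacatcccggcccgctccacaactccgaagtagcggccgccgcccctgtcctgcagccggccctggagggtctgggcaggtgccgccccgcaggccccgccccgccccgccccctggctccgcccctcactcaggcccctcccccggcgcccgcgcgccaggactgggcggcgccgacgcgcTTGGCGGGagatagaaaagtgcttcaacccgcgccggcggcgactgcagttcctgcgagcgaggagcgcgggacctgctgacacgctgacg

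The E2F-type match lay 60 to 53 bases before the annotated start in MYB and 41 to 34 bases before it in MYBL2, on the printed strand in each. TTGGCGGG was found in 1.2% of the 35116 promoter windows of the table. CACGTG was found in the MYBL2 window only, and in 7.26% of all windows. The motif TTGGCGGG was picked after these windows had been read, and a match describes letters, not binding.

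Total gene counts ranged from 251413 to 391786 in the pri-miR-135b samples and from 250792 to 392207 in the control samples. Background, set in each sample as the mean of 8 negative control probes plus 2 SD, lay between 14.7 and 26.1 counts. Of 8 epithelial markers on the panel 7 could be tested, with E-cadherin (CDH1) at 1979 and 1626 normalised counts in pri-miR-135b and control samples. Of 13 blood cell markers 10 were above background in no sample, KIT and the T-cell kinase LCK among them, and of 11 fibroblast and endothelial markers 5 were above it in no sample. The summed raw counts were 98 to 176 and 101 to 170 for the blood list and 138 to 202 and 94 to 231 for the fibroblast and endothelial list, in pri-miR-135b and control samples. The tests covered 3 blood and 5 fibroblast and endothelial markers. Of these edgeR called 0 in each list, with 0 at an unadjusted p under 0.05, and the DESeq2 Wald test called 0. Their group means were 14.8 to 28.5 normalised counts, close to background, with an SE of 0.25 to 0.31 on the log2 scale. At such counts 0 calls does not show that the groups match in these markers.

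MYC and MYB were both lower in the pri-miR-135b cells by about the same factor, 1.35-fold for MYC and 1.36-fold for MYB, and MYBL2 did not pass the test. So 2 of the 3 members were called, both lower. Over the whole panel 75 of 174 tested genes (43.1%) were called (adjusted p under 0.05 in the quasi-likelihood test of edgeR), and 25.3% of the tested genes were called lower. The 75 calls, with TMM scaling, were 31 higher and 44 lower. With reference gene scaling 67 genes were called, 37 higher and 30 lower. In a panel that moved this widely, 2 called of 3 is no more than a description of these genes.

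MYC, the growth-promoting factor, had 4306, 3391 and 2660 raw counts in pri-miR-135b replicates 1, 2 and 3, against 4695, 5817 and 3535 in the control replicates. Scaled for depth (TMM-normalised counts, used for all levels below), these were 3583, 3358 and 3390 in the pri-miR-135b samples, against 4572, 4802 and 4618 in the control samples. Raw counts of the groups overlapped and depth-scaled counts did not. The highest pri-miR-135b sample lay well under the lowest control sample. MYC averaged 3444 ± 122.0 in pri-miR-135b cells and 4664 ± 121.4 in control cells (SD, n = 3 each), which is -0.44 as a log2 fold change (95% interval -0.52 to -0.36, SE 0.04, edgeR adjusted p = 3.28e-09). The replicates varied by 3.54% and 2.60% of their mean in pri-miR-135b and control cells, where counting alone gives 1.70% and 1.46%.

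MYB, the progenitor factor, gave far fewer counts, and its counting error is larger for that reason. Its raw counts were 347, 259 and 231 in pri-miR-135b replicates 1, 2 and 3, against 370, 442 and 328 in the control replicates. Its depth-scaled counts were 288.8, 256.4 and 294.4 in pri-miR-135b samples, against 360.3, 364.8 and 428.5 in control samples. Again the groups did not overlap after scaling, and control replicate 3 stood highest. MYB averaged 279.9 ± 20.5 in pri-miR-135b cells and 384.6 ± 38.1 in control cells (SD, n = 3 each), which is -0.45 as a log2 fold change (95% interval -0.62 to -0.27, SE 0.08, edgeR adjusted p = 0.000135). The spread between replicates was 7.32% and 9.91% of the mean in pri-miR-135b and control cells, and counting alone gives 5.99% and 5.13%. The weakest sample still stood 15.5 times above its background level, and the mean of the negative probes amounted to at most 3.38% of a MYB count.

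MYBL2, the S-phase relative of MYB, had 5243, 5407 and 5106 normalised counts in pri-miR-135b replicates 1, 2 and 3, against 5596, 5379 and 5433 in the control replicates. The groups overlapped: pri-miR-135b replicate 2 lay above control replicate 2. MYBL2 averaged 5252 ± 150.8 in pri-miR-135b cells and 5469 ± 112.5 in control cells (SD, n = 3 each), and its log2 fold change was -0.06 with an SE of 0.03 (edgeR adjusted p = 0.178). Its 95% interval ran from -0.13 to 0.01, or from 0.914-fold to 1.01-fold on a linear scale, so the fold changes of MYC and MYB lie outside it. Its SE was among the smaller ones of the panel, with 6.9% of tested genes having a smaller one, against 11.5% for MYC and 58.0% for MYB.

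**Figure D1:**
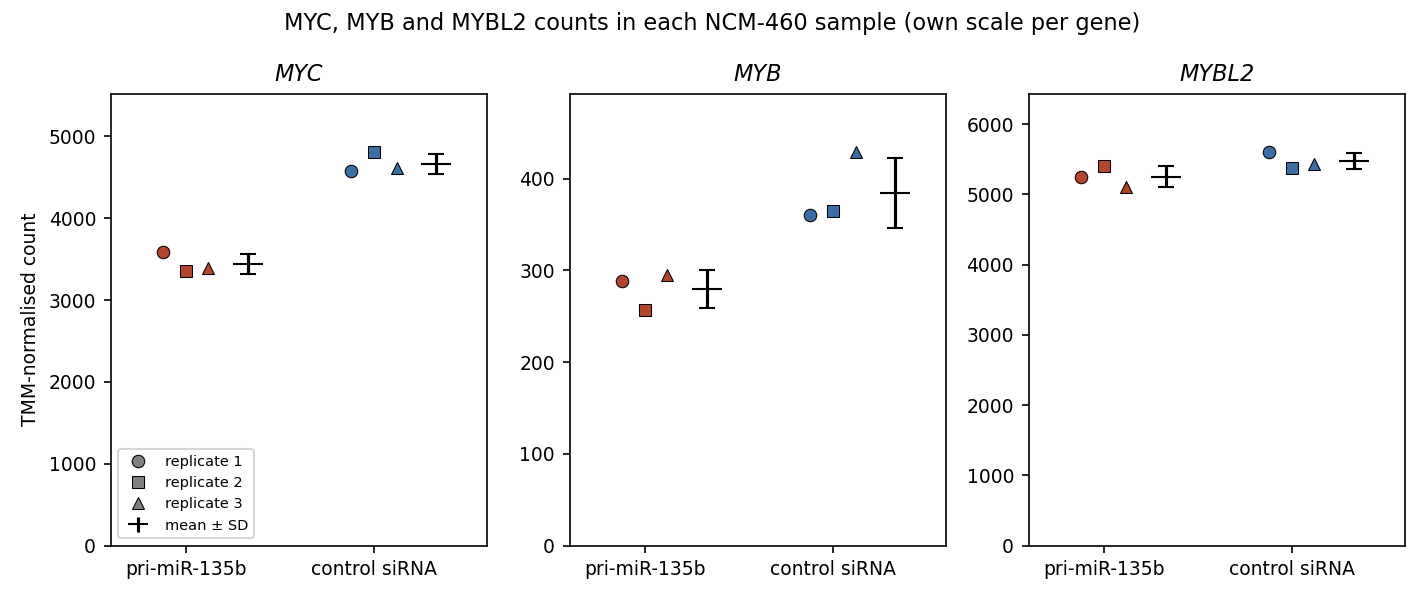
TMM-normalised counts (linear axes from 0, one scale per gene) of MYC, MYB and MYBL2 in each sample, pri-miR-135b on the left and control siRNA on the right, with symbols for replicates and bars for mean ± SD (n = 3). For MYC (3358 to 3583 against 4572 to 4802) and MYB (256.4 to 294.4 against 360.3 to 428.5) every pri-miR-135b sample lies below every control sample, while for MYBL2 the groups overlap.

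Groups that did not overlap were common: 51.7% of the tested genes had no overlap between the groups, and 29.9% were lower in every pri-miR-135b sample than in any control sample. By the log2 fold change, 15 tested genes lay below MYB and 18 below MYC, while 79 lay below MYBL2. The median over the 174 genes was -0.04. The authors' deposited table of normalized counts, which scales each sample by another factor, gave MYC 3557, 3394 and 3419 in pri-miR-135b replicates 1 to 3, against 4617, 4873 and 4572 in the control replicates.

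Ratios of the members within a sample do not depend on how that sample was scaled. The MYC to MYBL2 ratio of raw counts was 0.683, 0.621 and 0.664 in pri-miR-135b replicates 1, 2 and 3, against 0.817, 0.893 and 0.850 in the control replicates. The MYBL2 to MYB ratio was 18.2, 21.1 and 17.3 in the pri-miR-135b replicates, against 15.5, 14.7 and 12.7 in the control replicates. In both ratios the groups did not overlap, with MYBL2 holding its count better than MYC or MYB in the pri-miR-135b samples. On the log2 scale the MYC to MYBL2 ratio was -0.61 ± 0.07 in pri-miR-135b cells and -0.23 ± 0.06 in control cells (SD, n = 3 each), and the difference of -0.38 had an exact two-sided permutation p of 0.1. The MYBL2 to MYB ratio was 4.23 ± 0.15 in pri-miR-135b cells and 3.83 ± 0.15 in control cells, a difference of 0.40 (exact permutation p = 0.1). A p of 0.1 is the smallest that 3 samples against 3 allow, and adjusted over the 3 ratios it was 0.15 for each of these ratios, so neither could pass.

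The MYC to MYB ratio was nearly level: 12.4, 13.1 and 11.5 in pri-miR-135b replicates 1, 2 and 3, against 12.7, 13.2 and 10.8 in the control replicates. The groups overlapped fully in this ratio. Its log2 value was 3.62 ± 0.09 in pri-miR-135b cells and 3.60 ± 0.15 in control cells (SD, n = 3 each), a difference of 0.02 (exact permutation p = 0.9), which ranged from -0.07 without control replicate 3 to 0.08 without control replicate 2. A p of this size does not show that the 2 genes changed by the same factor. Replicate 3 had the lowest MYC to MYB ratio in both groups.

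**Figure D2:**
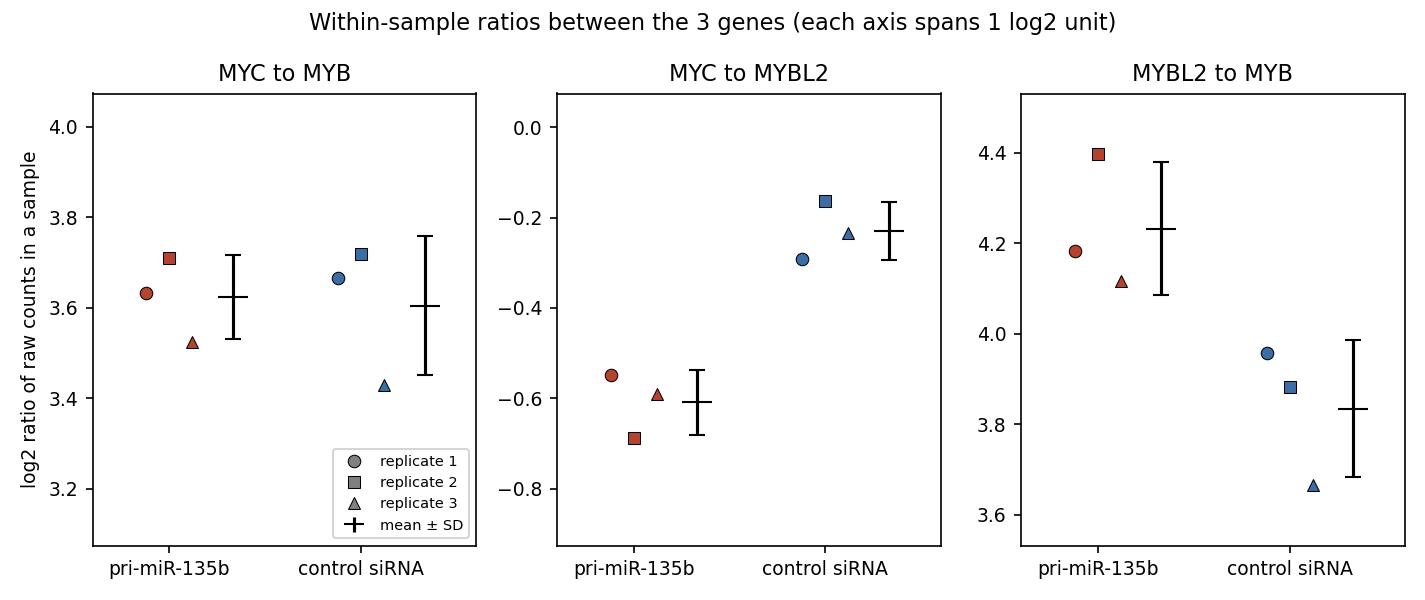
Log2 ratios of raw counts between the members within each sample (each vertical axis spans the same length and does not start at 0), pri-miR-135b on the left and control siRNA on the right, with symbols for replicates and bars for mean ± SD (n = 3). The MYC to MYBL2 ratio is lower (-0.61 against -0.23) and the MYBL2 to MYB ratio higher (4.23 against 3.83) in pri-miR-135b cells, and the MYC to MYB ratio overlaps.

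The MYC fall passed in 16 of 17 other settings and the MYB fall in 17 of 17, while MYBL2 passed in 0 of 17 (adjusted p by edgeR, DESeq2 or limma). Scaling by the positive spike probes ended the MYC call, with a log2 fold change of -0.43 and an edgeR adjusted p of 0.0766, and left that of MYB at 0.0446. The SE of MYC in that fit was 0.17, against 0.04 with TMM. Among the other genes named it ended 18 calls (edgeR adjusted p 0.121 to 0.868): ETS2, CDC25B, NPM1, TYMS, PCNA, HSP90AB1, CDKN2C, CEBPA, HMMR, PPARG, PGK1, WFDC2, BLM, EPS8, CDH1, MET, CCND1 and TFDP1. Subtracting background, with reference genes and limma, ended 11 calls (adjusted p 0.0666 to 0.422). Of these ETS2, TYMS, PGK1 and EPS8 had held whichever sample was left out, as had PIM1. The authors' normalized table with limma ended 6 calls (adjusted p 0.0544 to 0.185), and the DESeq2 Wald test ended 6 (0.0607 to 0.130). Spike counts amounted to 8.18% to 11.3% of gene counts in the pri-miR-135b samples and 9.05% to 9.89% in the control samples.

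**Figure D3:**
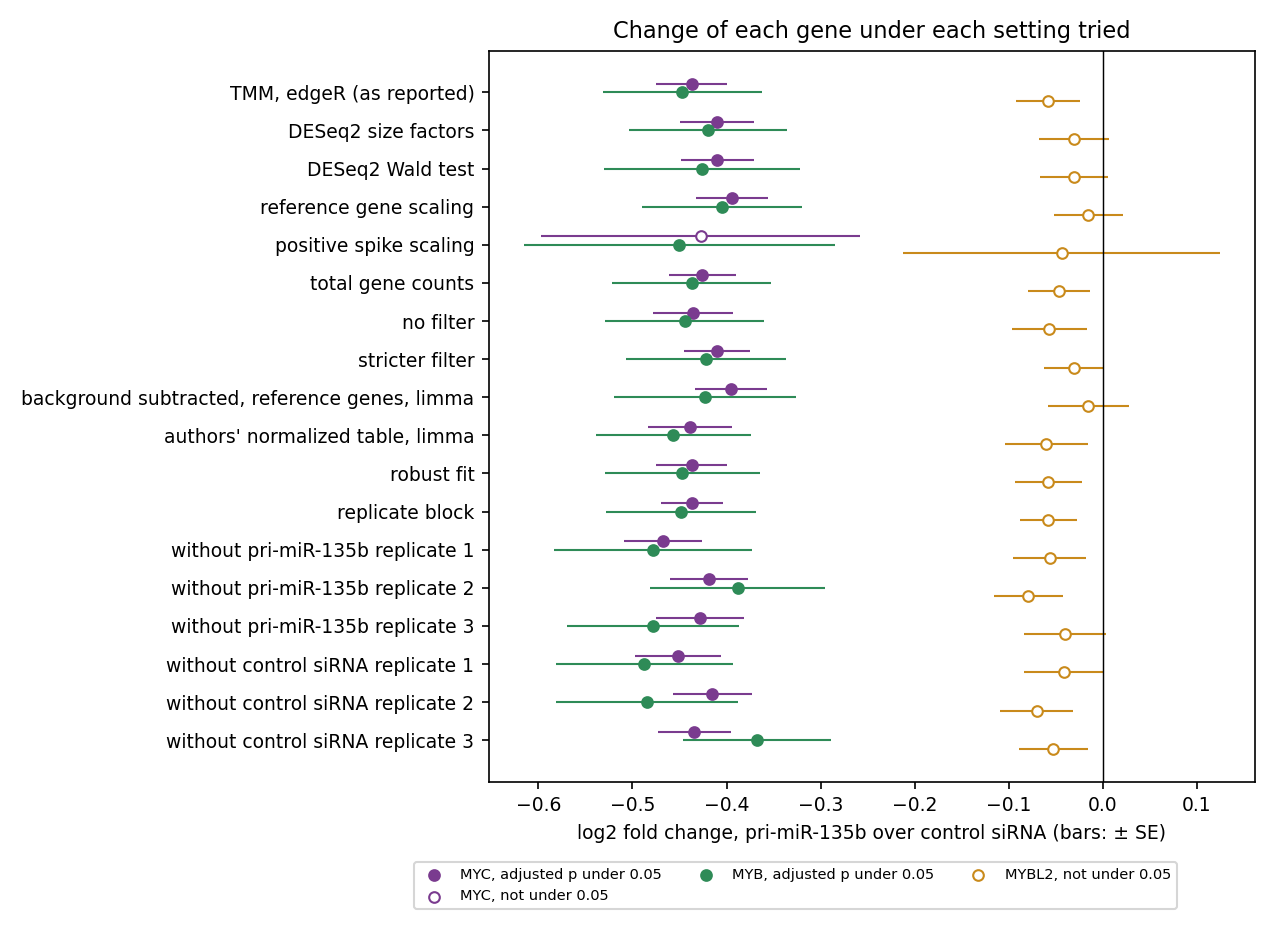
Log2 fold change (horizontal axis, pri-miR-135b over control siRNA) of each member under the reported fit and each alternative, with bars for ± SE, filled points for an adjusted p under 0.05 and open points otherwise. MYC stays between -0.47 and -0.39 and MYB between -0.49 and -0.37, and MYBL2 between -0.08 and -0.02 with open points throughout.

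The other MYC genes of the panel were at background. MYCN, the neural relative of MYC, had 14, 17 and 4 raw counts in pri-miR-135b replicates 1, 2 and 3, against 6, 17 and 7 in the control replicates. MYCL1, now named MYCL, had 13, 13 and 9 in the pri-miR-135b replicates, against 17, 12 and 4 in the control replicates. Each exceeded its sample's background in 1 of 6 samples, so neither was tested in the reported fit. MYC was thus the measurable member of its family here.

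Regulators known to act on MYC moved in both directions. Of 15 tested genes on this list 5 rose and 6 fell (73.3% called, median log2 fold change -0.08, against 43.1% and -0.04 over all tested genes), and 10 of the 11 calls held in each of the 6 fits without 1 sample. CTNNB1, which encodes beta-catenin, averaged 4005 counts in pri-miR-135b cells and 2528 in control cells (1.58-fold), and STAT3, a cytokine-activated factor, 919.9 and 616.9 (1.49-fold). ETS1 (2.15-fold), the AP-1 subunit JUN (1.37-fold) and PIM1, a kinase that stabilises MYC protein (1.43-fold), rose as well. The PIM1 call was lost with the authors' normalized table (limma adjusted p = 0.0544) and with background subtracted (limma adjusted p = 0.0666). APC, which promotes breakdown of beta-catenin, fell by 0.56 on the log2 scale, and TGFBR2, the receptor for the MYC-repressing ligand TGF-beta, by 0.71. The ligand gene TGFB1 was not called (log2 fold change -0.08, edgeR adjusted p = 0.315). E2F1, MYB and ETS2 were the other named falls of the list.

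Of 19 tested genes described as induced by MYC, 3 rose, 8 fell and 8 were not called (57.9% called, median log2 fold change -0.08). Over all tested genes 43.1% were called, 17.8% higher and 25.3% lower, and that balance turned with reference gene scaling, as given above. E2F1, the S-phase transcription factor, had 811.4, 808.9 and 745.6 normalised counts in pri-miR-135b replicates 1, 2 and 3, against 1262, 1199 and 1205 in the control replicates. The groups were far apart in E2F1 (log2 fold change -0.63, SE 0.05, edgeR adjusted p = 1.49e-09). CCNE1, cyclin E1, which starts S phase with CDK2, averaged 393.1 in pri-miR-135b cells and 563.1 in control cells (1.43-fold lower), and smaller falls were found for the phosphatase CDC25B (1.17-fold), the thymidylate enzyme TYMS (1.13-fold) and the replication clamp PCNA (1.12-fold). E2F3 (1.41-fold), the chaperone HSP90AB1 (1.16-fold) and, by 0.26 on the log2 scale, the nucleolar protein NPM1 rose. In the fits that left out 1 sample the PCNA call was lost without pri-miR-135b replicate 2 or control replicates 2 or 3 (edgeR adjusted p 0.0511 to 0.112), and the NPM1 call in 5 of 6, all but that without control replicate 2 (0.0628 to 0.152). The count of calls in the list was 11, and became 3 with spike scaling, 6 without pri-miR-135b replicate 2 and 7 without control replicate 1 or 3.

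Of 12 tested genes described as repressed by MYC, 5 rose and 4 fell (75% called, against 43.1% of the panel), with a median log2 fold change of 0.22 against -0.04 over the panel, and 6 of the 9 calls held whichever sample was left out. CDKN1A, the CDK inhibitor p21, averaged 142.8 counts in pri-miR-135b cells and 89.0 in control cells (1.61-fold), and GADD45A, a stress-response gene, 433.0 and 309.5 (1.41-fold). BCL2L1, an anti-apoptotic gene, rose 1.61-fold and CTGF, a secreted matrix-associated factor, 2.20-fold. The surface proteins ITGB1 and CD44 fell by 0.55 and 0.50 on the log2 scale. The CDK inhibitor CDKN2C and the differentiation factor CEBPA were called lower (-0.36 and -0.29), with edgeR adjusted p of 0.0524 to 0.0759 for CDKN2C without pri-miR-135b replicate 2 or 3 or control replicate 1 or 2, and of 0.0532 and 0.184 for CEBPA without pri-miR-135b replicate 2 or control replicate 2. The cyclin gene CCND1, called 1.10-fold higher, lost its call without pri-miR-135b replicate 1 or 2 or control replicate 3 (0.0834 to 0.172).

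Of 9 tested genes described as induced by MYB, a list that holds MYB itself, 3 were called lower, MYB, MYC and CCNE1, and 1 higher, BCL2L1 (median log2 fold change 0.05). That is 44.4% called, near the 43.1% of the panel, but the members MYC and MYB are themselves among these calls. The 4 calls held whichever sample was left out. The mitotic kinase gene CDC2, now CDK1, had a log2 fold change of 0.05 (edgeR adjusted p = 0.29). TOP2A, which untangles DNA, had 0.09 (edgeR adjusted p = 0.0829), and it passed in 6 of the other settings, among them reference gene scaling. KIT, a receptor gene known as a MYB target in blood cells, was above background in none of the 6 samples.

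A further list was written for G2 and mitosis genes described as bound by MYBL2 with MuvB. Of its 8 tested genes 1 rose, 2 fell and 5 were not called, and the median log2 fold change was 0.01. The 37.5% called is near the 43.1% of the panel. TOP2A, on this list too, is among the genes not called, and it passed in 6 of the other settings, as given above. CCNA2, cyclin A2, averaged 3663 counts in pri-miR-135b cells and 3598 in control cells (log2 fold change 0.03, edgeR adjusted p = 0.593). HMMR, a spindle-associated protein gene, was called 1.19-fold higher, and CDC25B and PCNA were the falls. PCNA encodes the replication clamp and is also on the E2F and RB list, so its fall is not that of a G2 or mitosis gene. Without pri-miR-135b replicate 2 the HMMR call was lost (edgeR adjusted p = 0.0531) and 1 of the list's 3 calls was left.

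MYBL2 is itself a known E2F target, and it is on the E2F and RB list, among the genes not called. Of the 20 tested genes of that list 2 rose, 5 fell and 13 were not called. That is 35% called and a median log2 fold change of -0.07, against 43.1% and -0.04 over the panel. E2F1 and CCNE1 fell most in this list and E2F3 rose most. TFDP1, the E2F dimer partner, was called 1.07-fold lower, and its call was lost without pri-miR-135b replicates 2 or 3 or control replicates 1 or 2 (edgeR adjusted p 0.0743 to 0.148). The list's 7 calls became 4 without pri-miR-135b replicate 2 and 3 with spike scaling. Among 12 other proliferation-linked transcription factors (50% called, against 43.1% of the panel) 3 rose, ETS1, STAT3 and JUN, and 3 fell, ETS2 (1.18-fold), the AP-1 subunit FOSL2 (1.39-fold) and PPARG (1.25-fold), and all 6 calls held whichever sample was left out.

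**Figure D4:**
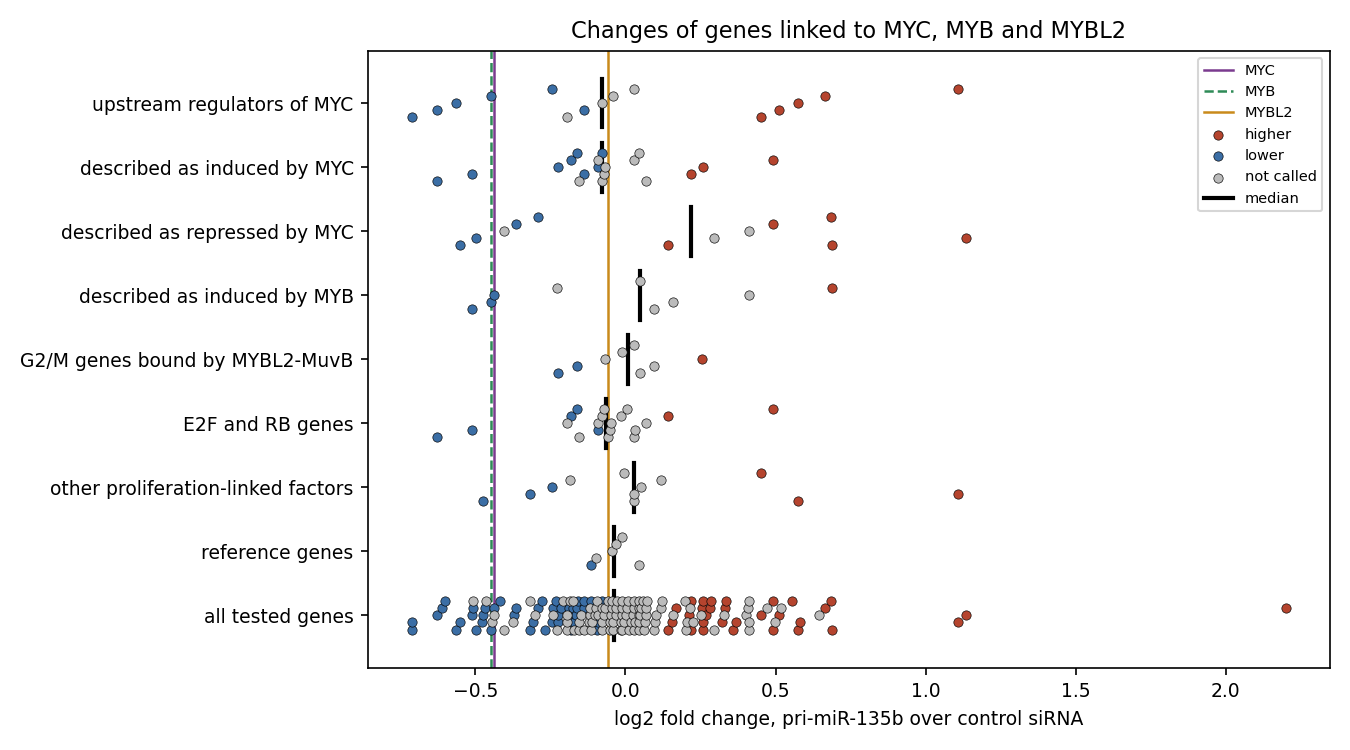
Log2 fold changes (horizontal axis, pri-miR-135b over control siRNA) of the tested genes of each list and of all 174 tested genes, coloured by call, with black bars for medians and vertical lines for the members. MYC (-0.44) and MYB (-0.45) lie left of the median of every list and MYBL2 (-0.06) near the median of the panel (-0.04).

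The genes whose levels most resembled each member were found by Pearson's r of log2 normalised counts over the 6 samples. The 6 points form 2 groups, so r mostly reflects the difference between them, and no p is given. For MYC they were TGFBR2 (r = 0.995), ITGB1 (0.993), the receptor ERBB3 (0.990), APC (0.982) and E2F1 (0.978), all of them called lower. For MYB they were DAPK1, a pro-apoptotic kinase (0.986), PPARG (0.986), WFDC2 (0.962), the helicase BLM (0.961) and CDKN2A (0.959). DAPK1 and PPARG fell by 0.60 and 0.32 on the log2 scale. The call of WFDC2 was lost without pri-miR-135b replicate 1 or 2 (edgeR adjusted p 0.0632 and 0.0864). That of BLM was lost in 4 of 6 such fits, without pri-miR-135b replicate 1 or 2 or control replicate 2 or 3 (0.0534 to 0.162). CDKN2A was not called (edgeR adjusted p = 0.0583), and it passed in 2 of the other settings.

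MYC and MYB resembled each other less than these genes did, with an r of 0.909. MYBL2 had r = 0.651 with MYC and 0.467 with MYB. Among the 5 genes nearest to MYBL2 were CD34 (0.947), the nuclear pore gene TPR (0.934), BRCA2 (0.882) and EPS8 (0.852). CD34 lay close to background, at 19.0 and 22.4 counts in pri-miR-135b and control cells, and EPS8 was called lower (log2 fold change -0.14).

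The reference genes give the scale on which the small MYBL2 value can be read. Of 6, PGK1 alone was called, 1.08-fold lower, and the log2 fold changes ran from -0.12 for PGK1 to 0.05 for TUBB. The MYBL2 value of -0.06 lies inside that range and those of MYC and MYB lie outside it. Of 7 tested epithelial markers 2 rose, CDH1 (1.22-fold) and MET (1.25-fold), and 3 fell, led by ERBB3 (1.42-fold). That is 71.4% called, against 43.1% of the panel. The part of these markers in the MYC and MYB differences was not tested. Those 5 calls became 3 without pri-miR-135b replicate 1 or control replicate 3. In bulk RNA, fewer cells with a transcript and less of it per cell cannot be told apart.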

How the data were processed

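Raw counts were deposited by the authors as whole numbers for 6 positive spikes, 8 negative controls and 236 genes. Per the labels' protocols, Trizol-extracted RNA at 33 ng per microlitre was processed by a core facility; no software is named in the sources used here. A second deposited table holds normalized counts by the authors (signal values). Set against the raw counts, all 1416 values equal the raw count (at least 1) times 1 factor per sample (0.826 to 1.29) within 0.02. What the factors rest on is not stated.

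Testing required a raw count over the sample's background (negative mean plus 2 SD) in at least 3 samples: 174 genes. The test was edgeR 4.0.16 (TMM, glmQLFit, glmQLFTest, group as the only term, two-sided, Benjamini-Hochberg over 174 genes, threshold 0.05) in R 4.3.3, with limma 3.58.1 and DESeq2 1.42.0 in alternatives. The deposited table was tested as log2(value + 1). Fold changes are pri-miR-135b over control, and SE is the absolute log2 fold change over the square root of F. Levels are counts over TMM-scaled library size. Counts of different probes are not compared as levels. The procedure was also run on counts simulated with no change or with equal numbers of rises and falls, and the outcome is not given here. Ratios used exact permutation tests (SciPy 1.17.1). Intervals cover the fitted spread, and counting percentages cover counting error only.

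The members and gene lists were chosen with earlier results of these data known. The lists were written from general knowledge, overlap, and were given no set test. Named genes are the members, up to 8 called genes (by size of change) and up to 3 uncalled ones (by mean count) per list, 5 most alike genes per member, and genes named outside the rule after their values were seen (MYCN, MYCL1, KIT and LCK). Not every gene the rule allows is reported here. Same-numbered samples were not taken as pairs.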

Additional observations from a re-analysis of the deposited data

How the results depend on the processing

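Scaling by positive spikes lowered the called genes to 26 from 75, the called genes among the 84 listed ones to 19 from 39 and the called members to 1 from 2, as MYC missed the threshold (log2 fold change -0.43, edgeR adjusted p = 0.0766); the cause was not tested. In the other 10 settings that kept all samples, 53 to 80 panel genes and 29 to 41 listed genes were called, and the 2 called members stayed at 2. Leaving out 1 sample gave 60 to 76 panel genes, 29 to 37 listed genes and 2 members. In those fits the log2 fold change ran from -0.47 to -0.41 for MYC, from -0.49 to -0.37 for MYB and from -0.08 to -0.04 for MYBL2, and the difference in log2 ratio from -0.0687 to 0.0754 for MYC to MYB, which turned sign without pri-miR-135b replicate 2 (-0.0251) or control replicate 3, from -0.41 to -0.34 for MYC to MYBL2 and from 0.31 to 0.46 for MYBL2 to MYB. The share of higher calls was 41.3% with TMM, 55.2% with reference genes, 52.4% with the DESeq2 Wald test and 58.5% with background subtracted together with reference gene scaling and limma. With the replicate block 80 genes were called and MYBL2 had an edgeR adjusted p of 0.102; same-numbered samples had correlations of 0.02, -0.13 and 0.13, and 2 of 6 samples correlated best with their own number. Over 48 genes selected by the naming rule, 82 of 814 values lost the call, 8 gained one, 0 turned sign and the other 724 stayed on their side. MYCN, MYCL1 and the other 60 genes below the filter were not tested in the reported fit. The setting without a filter fitted all 236 genes, and its values for these genes are not given here. How far depth limits them was not examined.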
